A study of Homo sapiens with 3 samples.

Results

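The members examined here were the MATR3 read clusters that the authors assigned to zinc finger genes of human chromosome 19. A cluster was counted when it lay on chromosome 19 and its gene name was ZNF followed by digits and at most 1 letter. The rule used no read value beyond the deposited list of clusters, though the set was chosen with earlier results of these data known. The rule found 877 clusters in replicate 1, 895 in replicate 2 and 697 in replicate 3. Together these were 2469 of the 388807 deposited clusters, in 184 of the 13557 gene names of the series. The cells were HEK293 of wild-type genotype, a long-used line from human embryonic kidney that the labels list as not treated, profiled with an antibody against MATR3 in 3 biological replicates. PAR-CLIP crosslinks RNA to protein through a photoactivatable uridine analogue, and a crosslinked uridine is read as T-to-C. The 3 libraries form 1 group with no control library, and RNA levels in these cells were not analysed here, so a gene with few clusters may be bound little or transcribed little, which cannot be told apart.

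Most ZNF genes encode C2H2 zinc finger proteins, in which tandem fingers each hold a zinc ion and read a few bases of DNA. Chromosome 19 carries the densest set of these genes, in neighbourhoods that grew by local gene duplication, so their finger exons and their introns hold related sequence. Many also carry a KRAB domain, which recruits the co-repressor TRIM28 (KAP1) and the histone methyltransferase SETDB1 and silences transposable elements and other target loci. MATR3 (matrin 3) is a nuclear matrix protein with RNA recognition motifs and zinc fingers of its own, known to bind pyrimidine-rich sequence in introns.

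The sites that recurred are shown first, since only a small part of the clusters did. A site was a stretch that a cluster of each of the 3 replicates covered, on 1 strand. There were 15 such sites in 12 of the genes, 10 of them in introns, and ZNF460 held 3. The sequences below are hg38 over the stretch shared by all replicates at 5 intron sites, read on the gene's strand from 5′ to 3′, and capitals mark runs of at least 6 pyrimidines (C or T).
ZNF460 intron, chr19:57284691-57284759, plus strand: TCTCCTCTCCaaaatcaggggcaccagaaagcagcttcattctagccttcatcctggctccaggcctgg
ZNF222 intron, chr19:44027857-44027909, plus strand: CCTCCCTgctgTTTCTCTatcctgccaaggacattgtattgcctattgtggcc
ZNF121 intron, chr19:9581290-9581325, minus strand: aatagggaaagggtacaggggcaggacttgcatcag
ZNF428 intron, chr19:43612567-43612603, minus strand: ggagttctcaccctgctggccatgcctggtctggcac
ZNF850 intron, chr19:36771722-36771754, minus strand: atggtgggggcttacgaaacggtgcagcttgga

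The ZNF460 and ZNF222 stretches hold such runs and the other 3 shown hold none, so a run was not in all of them. Shared stretches of intron sites with fewer reads in their poorest replicate, in ZNF444, ZNF473 and ZNF101, also held runs. How often such runs occur in stretches of this length outside the sites was not taken. The ZNF460 site had 32, 36 and 33 reads in replicates 1, 2 and 3, an even signal. The ZNF222 site had 22, 23 and 36 reads, highest in replicate 3. The ZNF121 site had 15, 29 and 17 reads, highest in replicate 2. ZNF428 and ZNF850 had sites of 19, 27 and 13 reads and of 10, 24 and 16 reads. The site with the most reads in its poorest replicate lay further upstream in ZNF460, at chr19:57280839-57281141, with 50, 76 and 41 reads, but its clusters had only 3 nt in common and no sequence is shown. The third ZNF460 site was in coding sequence at chr19:57291494-57291572, with 23, 10 and 13 reads. The ZNF787 site, at chr19:56102234-56102288, was in the 3′ UTR and had 9, 9 and 14 reads. Apart from these, 7 sites had between 5 and 8 reads in their poorest replicate, among them a pair in ZNF473, whose protein takes part in processing of histone pre-mRNA. Clusters in recurrent sites were 50 in number, 2.03% of the members. Among other chromosome 19 genes there were 109 such sites with 383 clusters, 2.96% of theirs.

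The libraries held 133088, 131679 and 124040 clusters, with a median of 8 to 9 reads each. The zinc finger genes had 9613, 9018 and 7883 reads, and their clusters had a median of 9, 8 and 9 reads from 3 distinct reads. They took 14.7%, 14.0% and 12.8% of all chromosome 19 clusters in the 3 replicates. To compare genes across libraries, a gene's reads were divided by all reads in clusters with a gene name and multiplied by 1000000, called normalised reads here. No molecular identifiers were used for these counts, so they can hold copies of 1 molecule. Reads of the zinc finger genes came from 3194, 3707 and 2557 distinct reads in replicates 1, 2 and 3. Differences between zinc finger genes and other genes were taken within each replicate and tested with an exact two-sided sign-flip test over the 3 differences, whose smallest possible p is 0.25. There were 16 tests, and a p of 0.25 became 0.308 after Benjamini-Hochberg adjustment, so no difference could pass 0.05. The text therefore gives the size of each difference, its SD and how many replicates show its direction.

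Among the 245 protein-coding genes of this name on chromosome 19 in GENCODE release 44, 127 had a cluster in all 3 replicates (51.8%), against 32.7% of all protein-coding genes of the chromosome. A further 24 had one in 2 replicates, 33 in 1, and 61 had none. At least 1 cluster was found in 75.1%, against 52% of all protein-coding genes of the chromosome. In the 1231 other protein-coding genes, 355 had a cluster in all 3 replicates (28.8%) and 647 had none. Per replicate, 62.9% ± 2.94 of the zinc finger genes had a cluster and 37.9% ± 1.63 of the others (SD, n = 3), a difference of 25.0 percentage points ± 1.36 with the same direction in 3 of 3 replicates. Zinc finger genes are longer, with a median of 25.7 kb against 13.9 kb, and a longer gene offers more sequence. Within the central length range of the zinc finger genes, 9.95 to 60 kb, the share in all 3 replicates was 52.8% of 195 against 33.9% of 708, and the difference per replicate was 20.2 points ± 2.64 (SD, n = 3). Zinc finger genes with and without a cluster had median lengths of 26.2 and 23.2 kb.

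**Figure D1:**
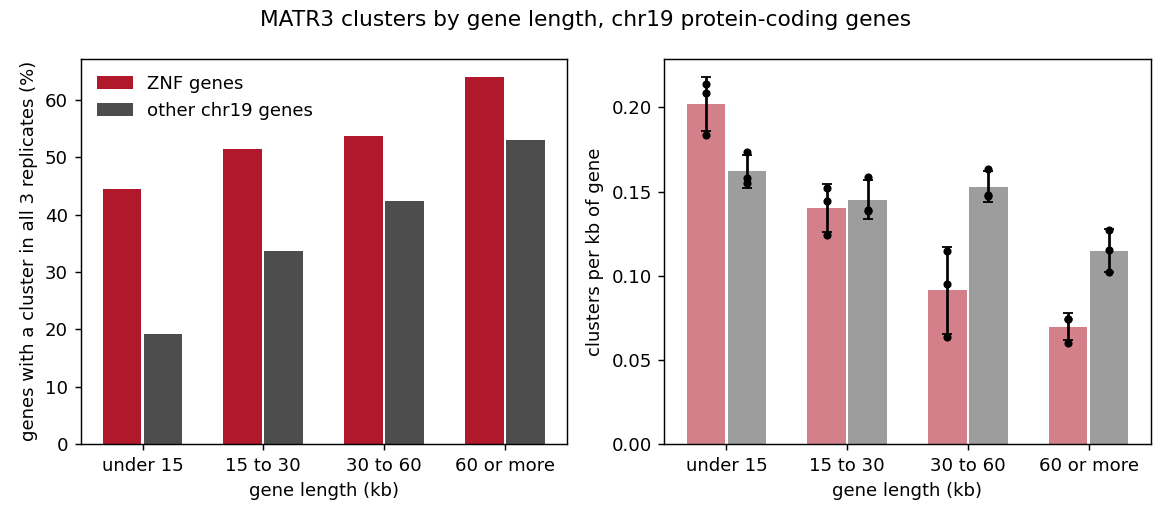
Left, the percent of protein-coding chromosome 19 genes with a MATR3 cluster in all 3 replicates, by gene length in kb; right, clusters per kb of gene in the same length classes, with bars for the mean of 3 replicates, points for each replicate and lines for 1 SD. On the left, zinc finger genes are above other genes in every class. Their shares go from 44.4% against 19.1% under 15 kb to 64% against 52.9% at 60 kb or more. On the right they are above only under 15 kb. Gene length is the whole annotated span.

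Although more of these genes were bound, they held fewer clusters per kb of gene span. Over all protein-coding members, those without a cluster included, the density was 0.113, 0.115 and 0.0896 clusters per kb in replicates 1, 2 and 3, a mean of 0.106 ± 0.0141 (SD, n = 3). The other genes had 0.137, 0.153 and 0.133, a mean of 0.141 ± 0.0104. The ranges do not overlap, and the log2 ratio was -0.42 ± 0.146, lower in 3 of 3 (exact sign-flip p = 0.25). For reads per kb the log2 ratio was -0.81 ± 0.123 (SD, n = 3). For intron clusters per kb of intron it was -0.0007 ± 0.145, so on that measure no difference was detectable. That measure divided all clusters of the authors' intron class by the introns of the GENCODE canonical transcript. Of these clusters, 1808 of 2001 in zinc finger genes and 9888 of 10117 in other genes lay in those introns. The intron measure therefore favours the zinc finger genes. Density per kb of span may go the other way, since introns were a smaller part of the span in zinc finger genes. Their spans came to 7781 kb, with 1597, 1473, 1318 and 46.5 kb in first, middle, last and sole introns. Spans of other genes came to 29274 kb, with 5919, 14035, 2001 and 574 kb. The part of this in the lower density was not tested. Among the zinc finger genes the density was lower in longer length classes, from 0.202 per kb under 15 kb to 0.140, 0.0913 and 0.0697 per kb at 15 to 30, 30 to 60 and at least 60 kb. Other genes gave 0.162, 0.145, 0.153 and 0.115 per kb in the same classes. Length here is the whole gene span, and the part of it that lay in introns was not compared between the classes.

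Clusters were spread thinly over many zinc finger genes. Bound genes had a median of 9 clusters over the 3 replicates, 83 genes had 10 or more and 101 had 1 to 9. The 10 genes with the most normalised reads held 27.7% of the clusters. Across chromosome 19, 21 genes that are not members had more normalised reads than the highest of them.

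That gene was ZNF536, which encodes a repressor of neuronal differentiation and spans 488.7 kb at chr19:30224891-30713586. It had 369, 405 and 310 normalised reads (361 ± 48.1, SD, n = 3) in 55, 64 and 44 clusters. Its density, 0.111 clusters per kb ± 0.0205, lay close to that over all zinc finger genes, and its reads were spread over the longest gene of the set. The authors placed 82 of its 163 clusters in the processed transcript class, and 81 in introns.

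ZNF460 gave the densest signal. Its 14.0 kb, at chr19:57280051-57294069, carried 24, 15 and 32 clusters, which is 1.69 per kb ± 0.607 (SD, n = 3), and 302, 228 and 412 normalised reads (314 ± 92.5). Replicate 2 was lowest in both values. Of its 71 clusters 46 were in introns, 12 in coding sequence and 10 in the 3′ UTR, and these 12 are among the 58 coding clusters of all members.

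ZNF121, at chr19:9560329-9584504, had 290, 253 and 305 normalised reads (283 ± 26.9) in 25, 21 and 22 clusters, 0.938 per kb ± 0.0861. It was the most even of the 3 densest genes, and 13 of its 68 clusters were in the 3′ UTR. ZNF787 had 173, 370 and 205 normalised reads (249 ± 106), highest in replicate 2, and 0.776 clusters per kb ± 0.251. ZNF146, a protein made up almost wholly of zinc fingers, had 159, 239 and 145 normalised reads (181 ± 50.6) and 0.662 clusters per kb ± 0.0414. ZNF222, the last of the 5 densest genes, is 7.77 kb long and had 4, 7 and 4 clusters, 0.644 per kb ± 0.223, with 56.9 normalised reads ± 3.67.

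ZNF91, which represses SVA and LINE-1 retrotransposons, had 174, 172 and 179 normalised reads (175 ± 3.33, SD, n = 3), with 22, 23 and 20 clusters over 90.5 kb. ZNF254, in the same group of nearby genes, had 221, 197 and 168 (195 ± 26.6), also with little spread. ZNF761 had 122 ± 21.5 normalised reads, ZNF160 had 111 ± 18.4 and ZNF529 had 110 ± 38.9. In ZNF529 replicate 3 stood lower, with 65.5 against 135 and 130 in the others. Genes next to each other in the order of these 10 overlap in their replicate values, apart from ZNF91 and ZNF761, so the order of such neighbours is loose. Genes further apart can be separate. Every replicate of ZNF536 and ZNF121 was above every replicate of ZNF254, ZNF146 and ZNF91.

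**Figure D2:**
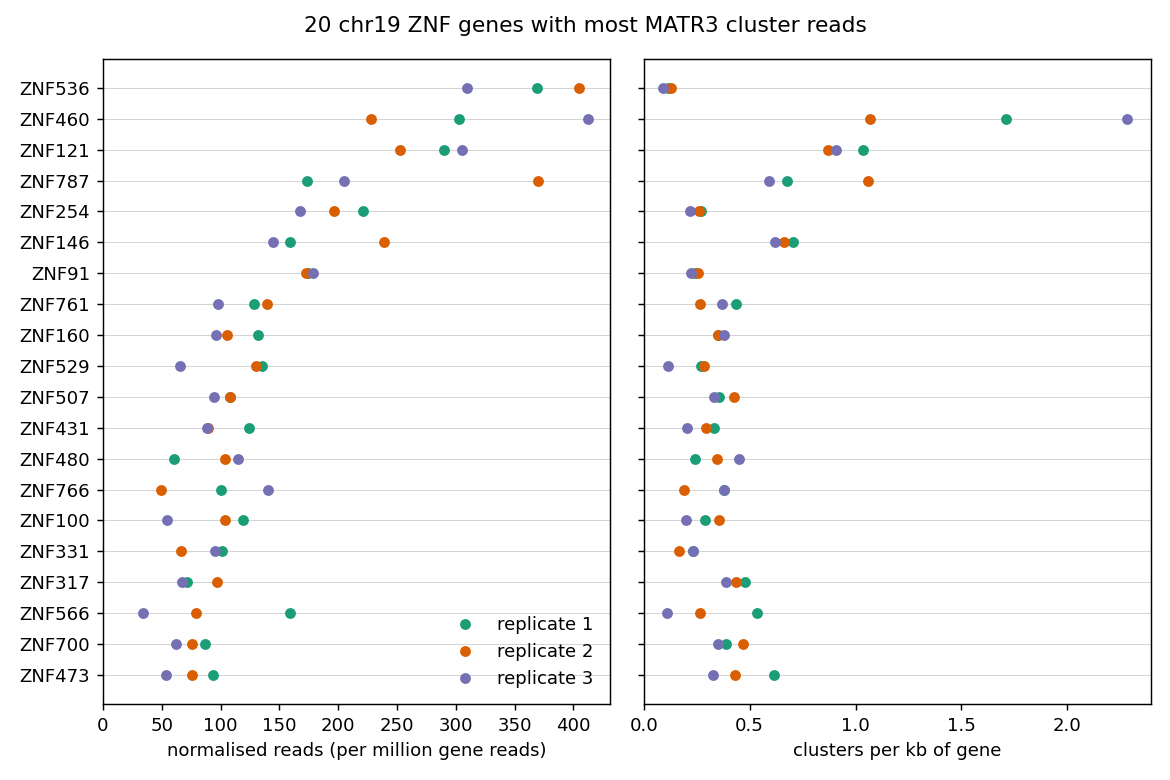
Normalised reads, left, and clusters per kb of gene, right, for the 20 chromosome 19 zinc finger genes with the most cluster reads, each point being 1 replicate. ZNF536 leads on the left and lies at 0.111 clusters per kb on the right, where ZNF460 at 1.69 and ZNF121 at 0.938 stand highest.

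Some long genes had no cluster. The 5 longest zinc finger genes with none in any replicate were ZNF98 at 141 kb, ZNF490 at 64 kb, ZNF93 at 62.6 kb, ZNF541 at 52.5 kb and ZNF586 at 50.3 kb. These lengths are gene spans. The introns of the canonical transcript were shorter, from 8745 nt in ZNF586 to 47573 nt in ZNF541, with 28990 nt in ZNF98. ZNF93 encodes a repressor of LINE-1 elements, as ZNF91 does, and ZNF541 is known as a gene of male germ cells. In these 5 genes 77.7% to 82.1% of windows of 38 nt occur once in hg38, against a mean of 84.0% over all zinc finger genes. Whether reads from repeated windows were kept is not given in the sources used here. Of the 23549 cluster sequences compared with hg38, 0 occurred more than once, so no cluster of repeated sequence is seen here. The part of this in the genes without a cluster was not tested. HKR1, now called ZNF875, fell outside the rule because the authors used its older name, and it was picked out after its values were seen. It had 41, 41 and 30 clusters and 374 ± 18.3 normalised reads (SD, n = 3), a mean above that of any member and within the replicate range of ZNF536.

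Zinc finger genes lie in 25 groups in which neighbouring genes are no more than 250 kb apart. The 11 genes from ZNF317 to ZNF846, which include ZNF121, had 0.178, 0.200 and 0.204 clusters per kb (0.194 ± 0.0138, SD, n = 3). The 43 genes from ZNF264 to ZNF446, which include ZNF460, had 0.176, 0.171 and 0.166 (0.171 ± 0.00507), and 27 of them had a cluster in all 3 replicates. The 25 genes from ZNF653 to ZNF791 had 0.0468, 0.0600 and 0.0322 (0.0463 ± 0.0139), and 11 of them had none. Replicate values of this last group lie below both of the others without overlap. In the 25 genes from ZNF565 to ZNF573, 20 had a cluster in all 3 replicates at 0.103 per kb ± 0.0246. Over all 245 zinc finger genes, 127 had a cluster in all 3 replicates (51.8%) and 61 had none. The share in all 3 was 32.7% over all protein-coding genes of the chromosome. Counts in the groups were not tested against these shares. The large groups from ZNF737 to ZNF254, with 29 genes, and from ZNF175 to ZNF331, with 39, had 0.0790 ± 0.0208 and 0.0916 ± 0.00701. Windows that occur once in hg38 made up 78.5% of the ZNF653 group, 85.4% of the ZNF317 group and 84.2% of the ZNF264 group, and the part of this in the densities was not tested.

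**Figure D3:**
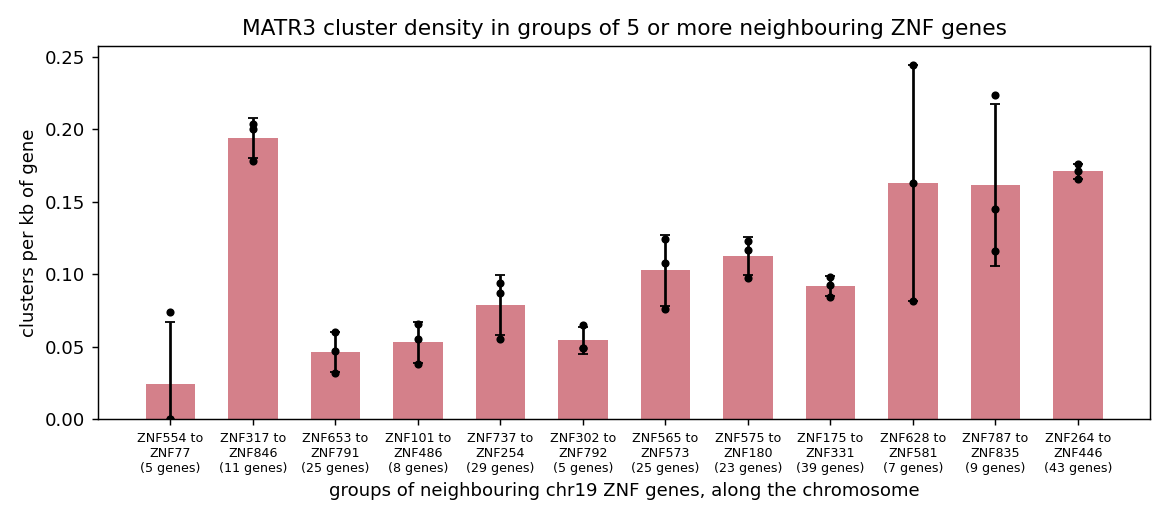
Clusters per kb of gene in the groups of at least 5 neighbouring zinc finger genes, in order along chromosome 19, with bars for the mean of 3 replicates, points for each replicate and lines for 1 SD. The group from ZNF317 to ZNF846 reaches 0.194 and the next one, from ZNF653 to ZNF791, 0.0463.

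By annotation class, 81.0% ± 0.54 of the zinc finger clusters were in introns, against 78.4% ± 0.596 of those in other chromosome 19 genes (SD, n = 3). The difference was 2.58 points ± 0.906, higher in 3 of 3 replicates, but it changed sign to -0.88 ± 1.30 against protein-coding genes alone and was 0.151 ± 1.53 against those of the zinc finger genes' lengths. Without ZNF536 it was 4.83 ± 0.904. The 3′ UTR share was 8.19% ± 1.01 against 9.26% ± 0.551, a difference of -1.07 ± 0.793 points, which was -0.50 ± 0.812 without ZNF536 and -0.63 ± 0.257 without replicate 2. The coding share was 2.35% ± 0.0495 against 2.97% ± 0.226, a difference of -0.62 ± 0.236 points, and turned to 0.367 ± 0.4 against ZNF genes of other chromosomes. Both were lower in each replicate, with an exact sign-flip p of 0.25. The processed transcript class held 4.99% ± 0.276 against 0.787% ± 0.0646, and 82 of its 123 clusters were in ZNF536, 16 in ZNF529 and 14 in ZNF91.

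Clusters in the 3′ UTR were found in 50 of the genes, and 18 had one in all 3 replicates. These were ZNF121, ZNF14, ZNF226, ZNF324, ZNF333, ZNF426, ZNF431, ZNF493, ZNF507, ZNF529, ZNF561, ZNF585A, ZNF587, ZNF649, ZNF780A, ZNF787, ZNF793 and ZNF8. In ZNF426 all 12 clusters were in the 3′ UTR, with 1, 7 and 4 in the 3 replicates. ZNF587 had 14 of its 19 clusters there and ZNF8 had 12 of 22. Intron clusters were found in 169 genes, and 9 had 3′ UTR clusters and no intron cluster. The same counts of genes were not taken for the rest of the chromosome, so they are not read as particular to zinc finger genes. As a share of clusters, the 3′ UTR held 8.19% in zinc finger genes and 9.26% in other genes of the chromosome.

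Within the transcripts, 1808 of the 2001 zinc finger intron clusters could be placed in an intron of the gene's GENCODE canonical transcript, and 9888 of 10117 in other genes. First introns of zinc finger genes had 0.152, 0.163 and 0.111 clusters per kb (0.142 ± 0.0276, SD, n = 3) and last introns had 0.155, 0.143 and 0.126 (0.141 ± 0.0145). These ranges overlap. Other genes had 0.239 ± 0.0145 in first introns and 0.106 ± 0.0137 in last introns, without overlap. The log2 ratio of first over last intron was -0.01 ± 0.188 in zinc finger genes and 1.19 ± 0.0974 in other genes, lower by 1.19 ± 0.284 in 3 of 3 replicates. Middle introns had 0.126 ± 0.0149 and 0.116 ± 0.00702 clusters per kb.

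Position inside the intron differed as well. In introns over 1 kb, the first 500 nt after the exon had 0.211, 0.229 and 0.173 clusters per kb in zinc finger genes (0.204 ± 0.0284), the interior 0.137 ± 0.0192 and the last 500 nt 0.0898, 0.118 and 0.0743 (0.0939 ± 0.022). Every replicate was higher at the 5′ end than at the 3′ end of the intron. Other genes had 0.160 ± 0.012, 0.153 ± 0.0108 and 0.133 ± 0.00758. The log2 ratio of the first over the last 500 nt was 1.14 ± 0.153 against 0.26 ± 0.0276, a difference of 0.88 ± 0.175 in 3 of 3 replicates (exact sign-flip p = 0.25, adjusted p = 0.308).

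**Figure D4:**
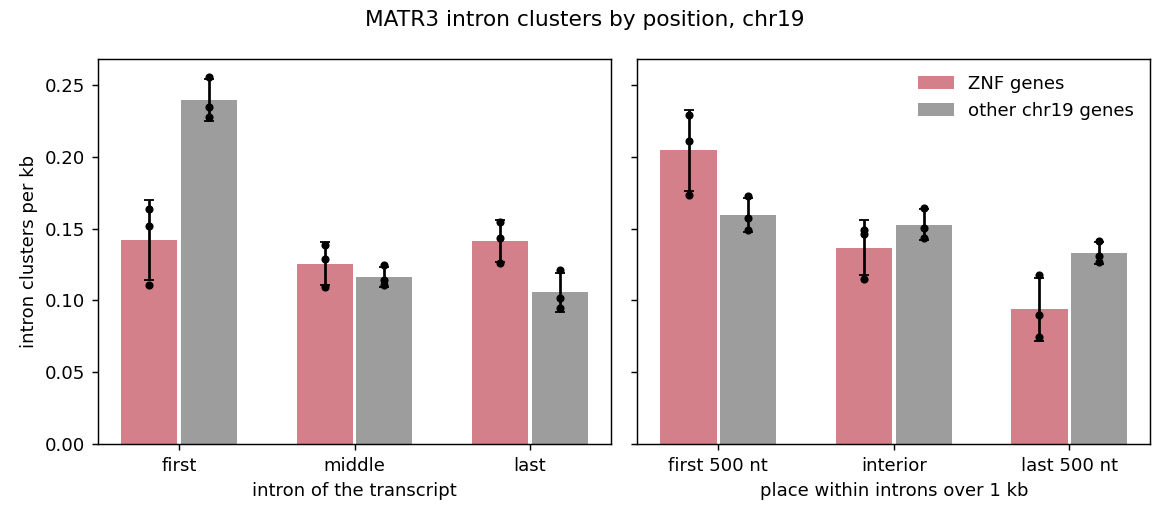
Intron clusters per kb of intron, left by the intron's place in the transcript and right by place within introns over 1 kb, for zinc finger genes and other chromosome 19 genes, with bars for the mean of 3 replicates, points for each replicate and lines for 1 SD. First introns reach 0.142 in zinc finger genes and 0.239 in other genes, and the first 500 nt reach 0.204 and 0.160.

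Recurrence of single clusters was low. A zinc finger cluster overlapped a cluster of another replicate, on its strand and by 1 nt or more, in 10.3%, 10.1% and 11.5% of cases (10.7% ± 0.777, SD, n = 3). Other chromosome 19 clusters did so in 14.9% ± 0.938, a difference of -4.21 points ± 0.609 in 3 of 3 replicates. After the clusters were moved by 1000 nt, which keeps the local density of clusters and loses the sites, the shares were 4.54% ± 0.595 and 9.03% ± 0.663. The measured share was 2.36 ± 0.138 times the moved share in zinc finger genes and 1.65 ± 0.0185 times in other genes. With the moved share subtracted the difference turned to 0.278 points ± 0.24. It was -1.23 ± 0.427 when the share after a move of 5000 nt was subtracted instead, and -0.83 ± 0.554 when 50% of each cluster had to overlap. The size of the difference therefore depended on these choices, and its direction on the distance moved. Overlap in both of the other replicates was found for 2.02% ± 0.366 and 3.31% ± 0.108. In the 3′ UTR the recurrence was 17.2% ± 0.28 in zinc finger genes and 16.8% ± 0.315 in the others.

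Intron clusters of zinc finger genes were poorer in GC and richer in T than those of their chromosome. Their GC content was 46.2%, 47.1% and 46.0% (46.4% ± 0.605, SD, n = 3) against 55.6% ± 0.433, a difference of -9.13 points ± 0.253 with 1 direction in 3 of 3 replicates. Their T content was 33.2% ± 0.951 against 26.6% ± 0.781, a difference of 6.61 points ± 0.521. The sequence beside the clusters differed in the same way. Windows as long as the cluster, placed 200 nt away on either side, had 44.7% ± 0.5 GC in zinc finger genes and 54.0% ± 0.308 in others. Clusters exceeded their windows by 1.72 and 1.58 points of GC, a difference of 0.138 ± 0.338 smaller than its own SD (exact sign-flip p = 0.75). Against ZNF genes of other chromosomes, with 45.3% ± 0.814 GC and 33.5% ± 0.915 T, the GC of the chromosome 19 members was higher by 1.18 points ± 0.293.

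Short words were counted in intron clusters against the same flanking windows. ATCTT, the DNA form of the AUCUU word known for MATR3, was in 191 zinc finger intron clusters, 9.65%, and in 6.66% of their windows. In other genes it was in 5.78% of intron clusters and 4.14% of windows. Its log2 ratio was 0.53 ± 0.257 in zinc finger genes and 0.48 ± 0.159 in other genes, a difference of 0.05 ± 0.185 that was higher in 2 of 3 replicates (exact sign-flip p = 0.75), so relative to flanking sequence no difference was detectable over these 3 libraries. Without that background, the log2 ratio of the share of clusters with ATCTT was 0.74 ± 0.191, higher in 3 of 3 replicates (exact sign-flip p = 0.25), beside the higher T content given above. TCTTC had 0.99 ± 0.222 in zinc finger genes, second of the 1024 words of 5 bases, and 0.67 ± 0.143 in the others, where it ranked first. It was in 331 zinc finger clusters, 16.6%. The 10 leading words of the 2 gene sets had 5 in common, and 6 and 8 of them were made of C and T only. TTTTT was less frequent in clusters than beside them in both sets, at -0.28 ± 0.298 and -0.69 ± 0.0261, although replicate 3 of the zinc finger genes was at 0.06. CACGT had 0.25 ± 0.54 from 28 clusters and -0.13 ± 0.167. The 5 words by which zinc finger genes exceeded the others most all contained CG and were each in only 8 to 25 zinc finger clusters, so counting error is large there. They were led by ACGAC, with 0.52 ± 0.83 against -1.25, and included GGTCG, with 1.45 ± 0.769 against -0.05.

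None of the clusters compared with hg38 was ambiguous as a whole sequence. All 23549 cluster sequences of chromosome 19 and of ZNF genes elsewhere were equal to hg38 at their coordinates, and 0 of them occurred more than once in the genome. Shorter stretches did recur. The central 20 bases occurred elsewhere in hg38 in 19.9% ± 1.36 of zinc finger intron clusters and 9.62% ± 1.15 of those in other genes (SD, n = 3), higher by 10.3 points ± 0.523 in 3 of 3 replicates, and in 14.3% ± 1.17 for ZNF genes of other chromosomes. At 10 or more occurrences the shares were 6.35% ± 1.26 and 3.67% ± 0.824. Of windows of 38 nt, 88.6% in zinc finger exons and 94.2% in other exons occur once, while introns were alike at 82.4% and 83.4%. Repeated windows thus exist in both gene sets, while no cluster compared was a repeated sequence. The 0 therefore describes the deposited clusters only and cannot show whether related copies affected which clusters were found. The word GAGAAACC, part of the DNA of the conserved linker between fingers, searched on the transcribed strand, was in 4 of 2469 zinc finger clusters, 1 of them among the 58 coding clusters, and in 12 of 12928 others.

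Crosslink-diagnostic changes were frequent. T-to-C was present in 89.2%, 88.7% and 89.0% of reads in zinc finger intron clusters (89.0% ± 0.243, SD, n = 3) and in 84.8% ± 0.828 in other genes, higher by 4.18 points ± 0.619 in 3 of 3 replicates. Counted per T position instead, conversion was 10.7% ± 0.392 against 12.4% ± 0.387, lower by 1.69 points ± 0.0383 in 3 of 3. The higher T content of the zinc finger clusters, given above, moves with both measures, and its part in them was not tested. In 3′ UTR clusters the read share was 82.4% ± 3.2 against 77.2% ± 0.801, and in coding clusters 89.3% ± 5.76 against 78.6% ± 1.04.

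Transcripts of the partners of KRAB zinc finger proteins also carried clusters. Of 18 genes for co-repressors and chromatin silencing factors, 15 had a cluster in all 3 replicates, against 40.8% of all protein-coding genes of the genome. Of the 18, 0 had none, and the share with none was not taken over the genome. The 18 genes are longer than most, with a median of 45.7 kb against 27.4 kb, and 16 of them lie on other chromosomes. Among all protein-coding genes within the length range of the list, 6.66 to 221 kb, the share was 46.9%, and the list was not tested against it. ATF7IP, which stabilises SETDB1, had 311 ± 19.5 normalised reads (SD, n = 3) and PPHLN1, a HUSH complex subunit, had 246 ± 29.5. DNMT1, the maintenance DNA methyltransferase, had 226 ± 80.6, and SETDB1 itself had 103 ± 38.8. TRIM28, a short gene of 6.66 kb on chromosome 19, had 4, 4 and 2 clusters and 22.0 ± 9.67 normalised reads. MORC2 had 1 cluster, in replicate 3. Among 20 chromosome 19 zinc finger genes with other names, 9 had a cluster in all 3 replicates and 9 had none. Of all 1476 protein-coding genes of the chromosome, 32.7% had one in all 3 replicates and 708 genes had none. ZFP112, also on the list of other names, is an older name of ZNF112, which is a member, and was left out of the 20. The most normalised reads among the 20 were in ZSCAN5A with 205 ± 39.4, ZBTB7A with 129 ± 63.6 and MZF1 with 114 ± 29.6.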

How the data were processed

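For each replicate the authors deposited 1 table of MATR3 clusters. Per the file headers, read and conversion numbers are raw counts, the T-to-C share is a fraction, the conversion specificity is on a log10 scale and the mode score is a score, and the last 2 were not used. The build is hg38, per the submitters' processing notes; the aligner, cluster caller and annotation release are not given in the sources used here. Every deposited cluster has at least 4 reads, 2 conversion locations and 20 nt, so weaker sites are not seen, and the cluster reads are not the library depth.

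Gene spans came from GENCODE release 44, and all 184 member names matched. Normalised reads are reads per 1000000 reads in gene-named clusters. 5-mer ratios used a pseudocount of 0.5 and windows 200 nt to each side. Tests were exact sign-flip tests, two-sided, on the 3 replicate differences, in Python 3.11.15 with numpy 2.4.6, pandas 2.3.3 and numba 0.67.0. Scripts were tested on simulated data.

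Named were the 10 genes with the largest geometric mean of normalised reads, the 5 densest with at least 3 clusters in every replicate, the 5 longest without a cluster, the genes of the 8 sites with most reads in the poorest replicate, and 2 fixed lists. Other genes named for their 3′ UTR or group were chosen after their values were seen. The members and lists were chosen with earlier results of these data known. Alternatives were other cluster filters, other comparison genes, other density and overlap measures, and leaving out each replicate; members plus HKR1, without ZNF536, other genes of over 1 exon and 2 kb, density per unique sequence and means over genes were chosen after seeing the data.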

Additional observations from a re-analysis of the deposited data

Results flagged for a closer look

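Clusters with no gene name took no part in the comparisons, and some lay beside the zinc finger genes. On the strand opposite a zinc finger gene there were 40, 37 and 24 of them in replicates 1, 2 and 3, a mean of 33.7 ± 8.5 (SD, n = 3). Within 5 kb downstream of a zinc finger gene on its own strand there were 44, 43 and 26, a mean of 37.7 ± 10.1. They were picked out because they are signal outside the comparisons above the limit of 3 reads that a count of 0 allows, which every deposited cluster passes with its 4 reads or more. All unnamed clusters of chromosome 19 numbered 876, 869 and 663.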

How the results depend on the processing

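Of 130 values recomputed for 10 results, 118 kept their direction or, for the count of genes, stayed within 1.5 times, 11 changed direction and 1 count moved further. A kept direction covers changes of size, given below. Another 23 values could not move, since 0 clusters are repeated in hg38. The density ratio against protein-coding genes only is counted in the 118 and could not move either, since it already used only those genes. The intron share difference became -0.88 points against protein-coding genes only and -1.18 against genes of over 1 exon and at least 2 kb, and kept its sign at 0.151 against genes of the members' lengths and 4.83 without ZNF536. The ATCTT difference became -0.0028 against genes of the members' lengths, -0.10 against ZNF genes elsewhere and -0.014 with the listed zinc finger genes added, and lay between -0.0397 and 0.15 when 1 replicate was left out, the lowest without replicate 3; with no background it was 0.74. Against ZNF genes elsewhere the coding, GC and T differences became 0.367, 1.18 and -0.26 points. The recurrence difference became 0.278 points minus the share moved by 1000 nt, -1.23 minus that moved by 5000 nt and -0.83 with an overlap of 50%, and T-to-C became -1.69 points per T position. When clusters under the median read count were left out, 77 members were in all 3 replicates. The cause was not tested for any of these. The log2 density ratio lay between -0.81 and -0.0007 and the 3′ UTR difference between -2.59 and -0.03, and the mean stayed negative. At the ends near 0 no direction can be read. These were -0.0007 ± 0.145 for intron clusters per kb of intron and -0.03 ± 0.662 with the listed zinc finger genes added. A median over genes gave no value, since the other genes' median was 0. The sign-flip test cannot pass 0.05 and says nothing on stability. Every difference was already taken within a replicate, and with 1 group of libraries no groups could be paired. The deposited clusters start at 4 reads, and weaker sites are not seen.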
